A study of Mus musculus with 12 samples.

Results

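Vascular and antiproliferative early-response genes are a set of 10 genes, *Apold1*, *Btg2*, *Ccn1*, *Klf2*, *Klf4*, *Ier2*, *Atf3*, *Maff*, *Csrnp1* and *Zfp36*, out of 36047 genes measured by bulk RNAseq in mouse cortex. They were found by gene symbol, and all 10 passed the filter on low values at both ages. They were selected with the 4-month difference between genotypes already known, so that difference is given below as a description with no p, and a count of calls there supports nothing. The values of the 19-month libraries were not used in the choice, and p-values are given for them, although the tests were chosen with earlier results of these data known. The set name is a working one, because bulk cortex does not show which cells made a transcript, and fewer cells of a type cannot be told apart from less RNA per cell.

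The libraries came from WT and *Gde2*KO mice, 3 of each genotype at 4 months of age and 3 of each at 19 months, 12 in all. *Gde2*KO mice (*Gde2*-/-) lack GDE2, a glycerophosphodiesterase at the cell surface that is encoded by *Gdpd5*, in the whole body, and the labels give no treatment for either genotype. Male and female mice were used in the study, and the labels do not give the sex of a library. The 4-month libraries carry replicate numbers 1 to 3, whereas the 19-month columns carry identifiers without a replicate number and are called A, B and C here in column order.

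Early-response genes are switched on within minutes of a stimulus by factors that already sit in the cell, without new protein synthesis. In brain they are best known from active neurons, but endothelium, mural cells and glia use them as well. *Apold1* encodes an apolipoprotein L domain protein of endothelial cells that is induced by ischemia. *Klf2* and *Klf4* encode Krüppel-like zinc finger factors that answer blood flow in endothelium. *Ccn1*, also called *Cyr61*, encodes a secreted matricellular protein of the vessel wall. *Btg2* encodes an antiproliferative protein of the BTG/TOB family that recruits the deadenylase complex to mRNA. *Ier2* and *Csrnp1* encode nuclear proteins, *Atf3* a stress-induced bZIP factor and *Maff* a small Maf protein without a transactivation domain. *Zfp36* encodes tristetraprolin, which binds AU-rich elements and speeds mRNA decay.

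The 10 genes are protein coding and are spread over the genome (GENCODE vM21 on GRCm38). *Btg2* (chromosome 1, 134075170 to 134079120, minus strand) and *Atf3* (191170296 to 191218039, minus strand) share chromosome 1. *Klf2* (72319033 to 72321656, plus strand) and *Ier2* (84661331 to 84662852, minus strand) share chromosome 8. *Apold1* lies on chromosome 6 (134981718 to 134986836, plus strand), *Ccn1* on chromosome 3 (145646976 to 145649981, minus strand), *Klf4* on chromosome 4 (55527143 to 55532466, minus strand), *Maff* on chromosome 15 (79346621 to 79359076, plus strand) and *Zfp36* on chromosome 7 (28376784 to 28380253, minus strand). *Csrnp1* (chromosome 9, 119971163 to 119984658, minus strand) lies wholly inside the annotated span of *Cx3cr1*, a microglial gene on the same strand, and overlaps an antisense transcript, as does *Zfp36*. The library kit did not record strand, so reads of *Csrnp1* and *Zfp36* cannot be fully told apart from those of their antisense partners. *Apold1*, *Btg2*, *Ccn1*, *Klf2* and *Ier2* have 1 annotated transcript each, so that 5 of the 10 gene values are single-transcript values.

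Upstream sequence is shown because cAMP response elements (CRE) and serum response elements are the best known switches of early-response genes. RefSeq (GRCm38.p6) gave 14 start sites for 9 of the 10 genes in the sequence table, and *Ier2* had no entry and was not searched. The 250 bases before each start were searched on both strands. The *Apold1* window lies inside the span of its 1 GENCODE transcript (start 134981718), and the *Zfp36* window inside that of its main transcript (start 28380253, minus strand). Motifs in these 2 windows are before the RefSeq start but not upstream of those transcripts. *Btg2* and *Maff*, which had the largest and the smallest 4-month fold change of the 10, both carry the full palindromic CRE, and *Ccn1* and *Apold1* are shown for a CRE half-site (TGACG, or CGTCA on the other strand) close to the start. *Zfp36* is shown as the member, among the 9 searched, with no half-site and with a CArG box, the core of the serum response element. Capitals mark these motifs.
*Btg2*, chr1:134079156-134079405, minus strand: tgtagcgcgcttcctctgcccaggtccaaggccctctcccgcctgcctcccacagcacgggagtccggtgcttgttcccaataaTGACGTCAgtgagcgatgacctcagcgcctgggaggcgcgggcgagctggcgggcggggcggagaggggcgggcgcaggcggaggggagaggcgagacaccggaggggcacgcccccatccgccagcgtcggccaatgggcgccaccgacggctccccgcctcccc
*Maff*, chr15:79347270-79347519, plus strand: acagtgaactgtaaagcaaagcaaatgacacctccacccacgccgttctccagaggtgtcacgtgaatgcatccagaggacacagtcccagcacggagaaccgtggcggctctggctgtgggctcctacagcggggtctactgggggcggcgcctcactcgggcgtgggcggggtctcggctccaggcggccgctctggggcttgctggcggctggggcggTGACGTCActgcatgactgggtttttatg
*Ccn1*, chr3:145649986-145650235, minus strand: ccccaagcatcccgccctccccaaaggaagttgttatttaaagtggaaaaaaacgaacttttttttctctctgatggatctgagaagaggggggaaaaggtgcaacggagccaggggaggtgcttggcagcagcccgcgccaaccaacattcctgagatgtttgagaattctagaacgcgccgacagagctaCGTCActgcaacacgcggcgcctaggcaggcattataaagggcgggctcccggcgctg
*Apold1*, chr6:134981751-134982000, plus strand: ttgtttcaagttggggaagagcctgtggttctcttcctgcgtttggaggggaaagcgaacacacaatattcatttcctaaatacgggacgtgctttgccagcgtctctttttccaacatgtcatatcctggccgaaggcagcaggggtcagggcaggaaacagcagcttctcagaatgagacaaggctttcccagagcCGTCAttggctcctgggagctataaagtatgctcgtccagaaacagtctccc
*Zfp36*, chr7:28379229-28379478, minus strand: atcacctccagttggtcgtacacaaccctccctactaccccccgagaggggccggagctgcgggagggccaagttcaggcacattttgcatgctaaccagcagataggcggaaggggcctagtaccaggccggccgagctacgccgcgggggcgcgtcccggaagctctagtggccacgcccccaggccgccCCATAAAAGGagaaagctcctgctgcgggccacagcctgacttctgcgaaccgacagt

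The full CRE TGACGTCA began 166 bases before the start in *Btg2* and 29 bases before it in *Maff*, and was held by 1.55% of the 32841 promoters of the table. The half-site TGACG, which the full CRE contains, stood in 12 of the 14 member promoters, covering 8 members, and in 17.8% of all promoters. It began 58 bases before the start in *Ccn1* and 52 bases before it in *Apold1*. The CArG box stood in 1 member promoter, 58 bases before the start of *Zfp36*, and in 1.47% of all promoters. The AP-1 motif TGANTCA stood in 1 *Csrnp1* promoter and in 6.75% of all promoters. The GC box GGGCGG stood in 9 member promoters, covering 8 members, and in 32.7% of all promoters. These matches describe the letters in the window and do not show binding.

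Estimated depth was 46432108 to 59726331 reads per library at 4 months. At 19 months it was 3707941 to 44602117, with WT library A (6734479 reads) and *Gde2*KO library A (3707941 reads) far below the other 4. *Gdpd5* was lower in every *Gde2*KO library than in every WT library of its age, at 417, 585 and 403 normalized counts against 684, 702 and 1199 at 4 months. At 4 months WT replicates 1 and 2 stood apart from the other 4 libraries, with higher hippocampus markers (mean log2 score 2.04 and 1.89, against -0.57 to -1.27 in the others) and lower striatum markers (-2.26 and -2.42, against 0.42 to 1.83). WT replicate 3 is therefore the WT library closest to *Gde2*KO in these markers, and the 4-month values of the 10 genes are given with and without replicates 1 and 2. All 20 endothelial and all 10 neuronal markers were above 0 in every library.

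Levels are given first per length, in the deposited TPM (a value corrected for transcript length and then divided by a size factor of the library). In 4-month WT cortex *Csrnp1* was at 12.7 ± 4.19 TPM (SD, n = 3) and *Klf2* at 12.4 ± 4.65, and *Btg2*, *Ccn1* and *Ier2* followed at 10.6 ± 3.0, 10.3 ± 0.818 and 9.05 ± 2.87. *Apold1* (5.45 ± 1.59) and *Klf4* (4.50 ± 1.57) came next, and *Maff*, *Atf3* and *Zfp36* were lowest at 2.89 ± 1.02, 2.68 ± 1.21 and 2.64 ± 1.14. Neighbors in this order overlapped in their libraries. In 4-month *Gde2*KO cortex the order was led by *Btg2* (34.7 ± 5.39 TPM) and *Ier2* (26.7 ± 5.62), ahead of *Klf2* (22 ± 1.91), *Ccn1* (21.2 ± 1.49), *Csrnp1* (18.1 ± 3.08) and *Apold1* (15.2 ± 1.61). Below them *Klf4* (7.96 ± 1.52) overlapped neither *Apold1* nor *Atf3* (3.69 ± 0.693), which stood beside *Zfp36* and *Maff*.

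The other 5 genes were split over several annotated transcripts, and their values per length depend on that split. In *Atf3* a short noncoding transcript of 517 bases took 64.5% ± 10.6 of the TPM in 4-month WT and 40.8% ± 19.5 in 4-month *Gde2*KO (SD, n = 3). The main coding transcript of 1984 bases took 31.7%, 47.5% and 27.3% in WT and 52.6%, 43.8% and 81.1% in *Gde2*KO, so the genotypes overlapped. Its share was 78.7% ± 18.7 in 19-month WT and 42.3% ± 36.7 in 19-month *Gde2*KO, on few reads. In *Csrnp1* a 465-base transcript took 42.3% ± 6.84 in 4-month WT and 35.9% ± 4.70 in *Gde2*KO. *Klf4* and *Zfp36* were led by 1 transcript, at 97.6% ± 2.24 and 82.7% ± 4.26 in 4-month WT, and *Maff* by the transcript of 1958 bases, at 66.5% ± 14.3.

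At 4 months each of the 10 genes had a higher mean in *Gde2*KO than in WT cortex. The steepest were *Btg2*, *Ier2* and *Apold1*, at fitted folds of 3.44, 3.09 and 2.97, and the flattest *Zfp36* and *Maff*, at 1.37 and 1.26. Values below are normalized counts, estimated counts divided by a size factor, and fold changes are on the log2 scale with a pseudocount of 0.5.

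Of the genes known from endothelium or the vessel wall, *Apold1* measured 271, 305 and 457 in WT replicates 1, 2 and 3. In *Gde2*KO it measured 939, 909 and 1159. The lowest *Gde2*KO library was well above the highest WT library, and the log2 fold change was 1.57 ± 0.22 (SE). *Klf2* measured 269.6, 317 and 531 in WT and 623, 708 and 732 in *Gde2*KO, a log2 fold change of 0.94 ± 0.25. *Klf4* measured 196, 178 and 326 in WT and 385, 420.2 and 372 in *Gde2*KO, a log2 fold change of 0.80 ± 0.24. For both Krüppel-like factors the genotypes did not overlap, but WT replicate 3 came close to the *Gde2*KO libraries. *Ccn1* was the tightest within WT, at 350.3, 313 and 367, and stood at 754, 653 and 803 in *Gde2*KO, a log2 fold change of 1.10 ± 0.15. Its groups did not overlap.

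The antiproliferative gene *Btg2* measured 371, 491 and 650.4 in WT and 1712, 1389.9 and 2036 in *Gde2*KO. No library of one genotype reached the other, and the log2 fold change of 1.78 ± 0.23 was the largest of the 10. *Ier2* measured 172, 183 and 295 in WT and 655, 504 and 828 in *Gde2*KO, a log2 fold change of 1.63 ± 0.26. *Csrnp1* measured 345, 313 and 484 in WT and 679.8, 521 and 627 in *Gde2*KO, a log2 fold change of 0.70 ± 0.20. *Ier2* was well separated, whereas the *Csrnp1* groups were divided by a narrow gap between WT replicate 3 and *Gde2*KO replicate 2.

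*Atf3* was sparse, at 42.5, 24.2 and 46.6 in WT and 73.3, 52.2 and 130.5 in *Gde2*KO, and its log2 fold change of 1.12 ± 0.40 had the largest error. *Maff* measured 63.4, 65.9 and 127 in WT and 105, 72.2 and 141 in *Gde2*KO, a log2 fold change of 0.33 ± 0.35. *Zfp36* measured 85.7, 103 and 184 in WT and 162, 154 and 169 in *Gde2*KO, a log2 fold change of 0.46 ± 0.29. In *Maff* and *Zfp36* the groups overlapped, and in *Zfp36* WT replicate 3 was above all 3 *Gde2*KO libraries.

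**Figure D1:**
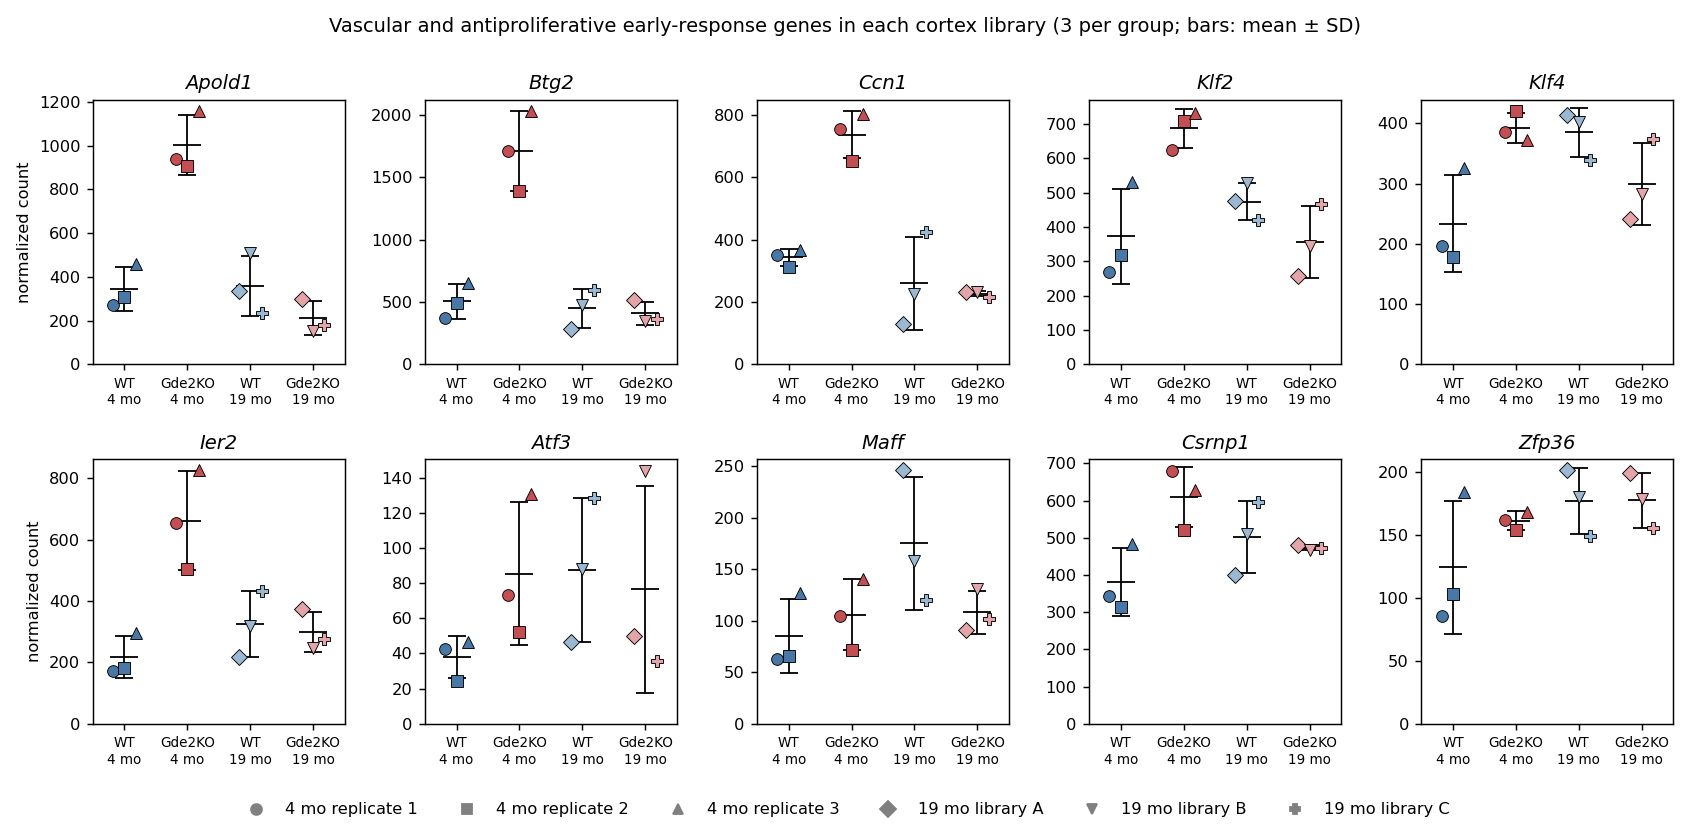
Normalized counts (y axis, linear from 0, a scale of its own in each panel) of the 10 genes in each of the 12 cortex libraries, by genotype and age (x axis), with black bars for the mean ± SD of 3 libraries and a marker shape for each replicate or letter. At 4 months the *Gde2*KO points lie above the WT points in every panel but those of *Maff* and *Zfp36*, and at 19 months the genotypes overlap in every panel.

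In normalized counts every *Gde2*KO library was above every WT library for 8 of the 10 genes at 4 months, where 11.1% of all tested genes had that order. In TPM the genotypes also overlapped for *Csrnp1* (WT replicate 3 at 17.57, *Gde2*KO replicate 2 at 14.99) and *Atf3* (3.66 and 3.05 in the same libraries). The log2 fold change of *Atf3* in TPM was 0.47 ± 0.32. By limma, with the study's limits of 0.1 on the adjusted p and 0.5 on the natural log of the fold change, 3 of the 10, *Apold1*, *Btg2* and *Ccn1*, were called higher, and 0.105% of the 19035 genes tested were. The genes were picked on this contrast, so neither count is a test of them and nothing is read from it. Their median log2 fold change was 1.02 and that of all tested genes 0.11. Rescaling by the median ratio between libraries moved the median of all genes to -0.01 and that of the 10 to 0.90, with all 10 still above 0. The count of 3 was fragile, since it became 8 without WT replicate 3 and 0 without any other single library of that age. Without WT replicate 3, calls in either direction over all tested genes also rose, to 1510 of 18798 from 24 of 19035.

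WT replicate 3 was the highest of the WT libraries for 10 of the 10 genes, where 38.5% of all tested genes had it highest. The 10 genes were chosen on these libraries, so nothing is read from that count. The value of WT replicate 3 was 1.11 times the mean of replicates 1 and 2 in *Ccn1*, 1.40 times in *Atf3*, 1.47 times in *Csrnp1* and 1.51 times in *Btg2*. The ratio was 1.59 in *Apold1*, 1.67 in *Ier2*, 1.74 in *Klf4*, 1.81 in *Klf2* and 1.96 in both *Maff* and *Zfp36*. Set against WT replicate 3 alone, the *Gde2*KO mean was still 2.63 times as high for *Btg2*, 2.24 times for *Ier2*, 2.19 times for *Apold1*, 2.01 times for *Ccn1* and 1.83 times for *Atf3*. For *Klf2*, *Csrnp1* and *Klf4* the ratio came down to 1.30, 1.26 and 1.21, and for *Zfp36* and *Maff* it was 0.877 and 0.836. Without WT replicates 1 and 2, 8 of the 10 genes stayed above 0 and the median log2 fold change was 0.57. That fit has 1 WT library, which is assumed to vary like the *Gde2*KO libraries. The part of hippocampus and striatum content in these differences was not tested.

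**Figure D2:**
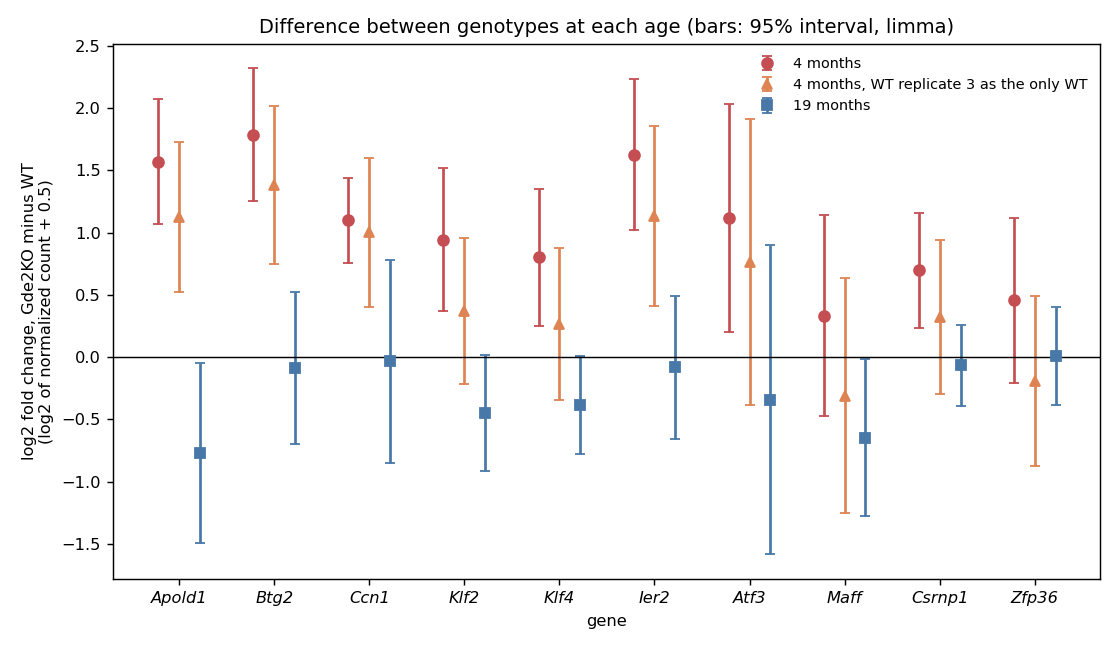
Log2 fold change between genotypes (y axis, *Gde2*KO minus WT, on log2 of normalized count + 0.5) for each gene (x axis) at 4 months, at 4 months with WT replicate 3 as the one WT library, and at 19 months, with bars for the 95% interval from limma, which with 1 WT library takes its spread from *Gde2*KO alone. *Apold1*, *Btg2*, *Ccn1* and *Ier2* stay above 1 against WT replicate 3 alone, *Maff* and *Zfp36* fall below 0, and the 19-month points lie at or below 0 apart from *Zfp36* at 0.01.

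At 19 months, in libraries whose values were not used to choose the genes, the excess was not seen. The tests themselves were chosen with earlier results of these data known. None of the 10 passed the test (0 of 10 by limma, with 0.0969% of the 18583 genes tested called in either direction). Of the 10, 2 (*Apold1* and *Maff*) had an unadjusted limma p under 0.05, as had 1285 of the 18583 genes tested. The count of 2 ran from 0 to 3 under other settings. In 9 of the 10 genes the 19-month log2 fold change was below 0, with a median of -0.21. Of the 18583 genes tested 8286 were above 0, and their median was -0.02 over all tested genes. The genotypes overlapped for every one of the 10, while 14.2% of all tested genes were without overlap in one direction or the other. With 3 libraries against 3, an exact permutation test of a single gene cannot give a p below 0.1.

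*Apold1* leaned the other way at this age, at 335, 507 and 236 in WT libraries A, B and C and 299, 153 and 177 in *Gde2*KO. The *Gde2*KO libraries were mostly lower, with *Gde2*KO library A between WT libraries C and A. Its log2 fold change was -0.77 ± 0.32 (95% interval -1.49 to -0.05, limma adjusted p = 0.71). *Maff* stood at 247, 158 and 120.4 in WT and 91.2, 131 and 102 in *Gde2*KO, a log2 fold change of -0.65 ± 0.28 (95% interval -1.27 to -0.02, limma adjusted p = 0.71). *Gde2*KO library B was above WT library C.

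*Klf2* measured 475, 527 and 419 in WT and 257, 344 and 466 in *Gde2*KO, a log2 fold change of -0.45 ± 0.20 (limma adjusted p = 0.71). *Klf4* measured 415, 402 and 339 in WT and 241, 282 and 374 in *Gde2*KO, a log2 fold change of -0.38 ± 0.17 (limma adjusted p = 0.71). In both, *Gde2*KO libraries A and B were below all WT libraries and library C was not.

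*Btg2* measured 279.5, 473 and 593 in WT and 514, 349 and 366 in *Gde2*KO, and *Ier2* measured 219, 320.1 and 434 in WT and 373, 247 and 278 in *Gde2*KO. In both genes the WT range enclosed all 3 *Gde2*KO libraries. The log2 fold changes were -0.09 (95% interval -0.70 to 0.52, limma adjusted p = 0.94) for *Btg2* and -0.08 (-0.66 to 0.49, limma adjusted p = 0.94) for *Ier2*.

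*Ccn1* spread widely in WT, at 130.4, 225 and 424, and was narrow in *Gde2*KO, at 232, 231 and 217. *Csrnp1* behaved alike, at 401, 509 and 596 in WT and 481, 466 and 473 in *Gde2*KO. Their log2 fold changes were -0.03 (95% interval -0.85 to 0.78, limma adjusted p = 0.99) and -0.06 (-0.39 to 0.26, limma adjusted p = 0.91). *Zfp36* was level, at 202, 180.3 and 149 in WT and 199, 179 and 155 in *Gde2*KO, with a log2 fold change of 0.01 (-0.38 to 0.40, limma adjusted p = 0.99). *Atf3* varied most, at 46.6, 88.1 and 128 in WT and 49.8, 144 and 35.9 in *Gde2*KO (log2 fold change -0.34, 95% interval -1.58 to 0.90, limma adjusted p = 0.87). Without WT library C the log2 fold changes of *Btg2*, *Ier2*, *Ccn1* and *Csrnp1* turned to 0.15, 0.15, 0.40 and 0.07. Without both libraries of low depth they moved the other way, to -0.57 (95% interval -0.88 to -0.26, limma adjusted p = 0.49), -0.51 (-0.91 to -0.11, limma adjusted p = 0.77), -0.46 and -0.23. The *Atf3* value of 49.8 in *Gde2*KO library A rests on about 6 reads, and the 10 genes had 6 to 62 reads each in that library.

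Across ages, the 4-month *Gde2*KO libraries were the highest for 5 of the 10 genes. For *Apold1*, *Btg2*, *Ccn1*, *Klf2* and *Ier2*, each of these 3 libraries was above all 9 other libraries, an order that 4.51% of the 18040 genes tested at both ages had and that uses the values the genes were chosen on. *Klf4*, *Atf3*, *Maff*, *Csrnp1* and *Zfp36* did not have it, and the group of highest mean was 19-month WT for *Atf3* and *Maff* and 19-month *Gde2*KO for *Zfp36*. The *Gde2*KO mean at 19 months was 0.209 times that at 4 months for *Apold1*, 0.239 times for *Btg2*, 0.308 times for *Ccn1*, 0.452 times for *Ier2* and 0.517 times for *Klf2*. In WT the same ratios were 1.04, 0.890, 0.757, 1.5 and 1.27. For *Maff* and *Atf3* the WT mean was 2.05 and 2.32 times as high at 19 months as at 4 months. Subtracting the 4-month from the 19-month log2 fold change gave -2.34 for *Apold1*, -1.87 for *Btg2*, -1.71 for *Ier2* and -0.45 for *Zfp36*. The difference between ages was not tested and no interval is given, since its 4-month side chose the genes, and age cannot be told apart from the separate sets of libraries.

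Whether the genes followed each other was read from the libraries within each group, after each group's mean had been taken away on the log2 scale, so that the genotype difference that chose the genes does not enter. Over the 12 libraries the 45 pairs had a median Pearson's r of 0.338. Of these, 35 pairs (77.8%) were above 0 and 15 (33.3%) above 0.5. Pairs of a member with another gene of 50 normalized counts or more had a median of 0.0955, 59.1% above 0 and 13.7% above 0.5. The points share libraries, depth and dissection, and no p is given.

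This median rested on 1 library. Within the 4-month libraries it was 0.777, with 45 of 45 pairs above 0, where pairs of a member with another gene had a median of 0.214 and 62.0% above 0. Within the 19-month libraries it was -0.208, with 17 of 45 (37.8%) above 0, where pairs with another gene had a median of -0.004 and 49.8% above 0. Without 4-month WT replicate 3 it was -0.191, and with any other single library left out it stayed between 0.270 and 0.508. Without both libraries of low depth it was 0.574. The 10 genes therefore did not move as 1 block in every group.

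**Figure D3:**
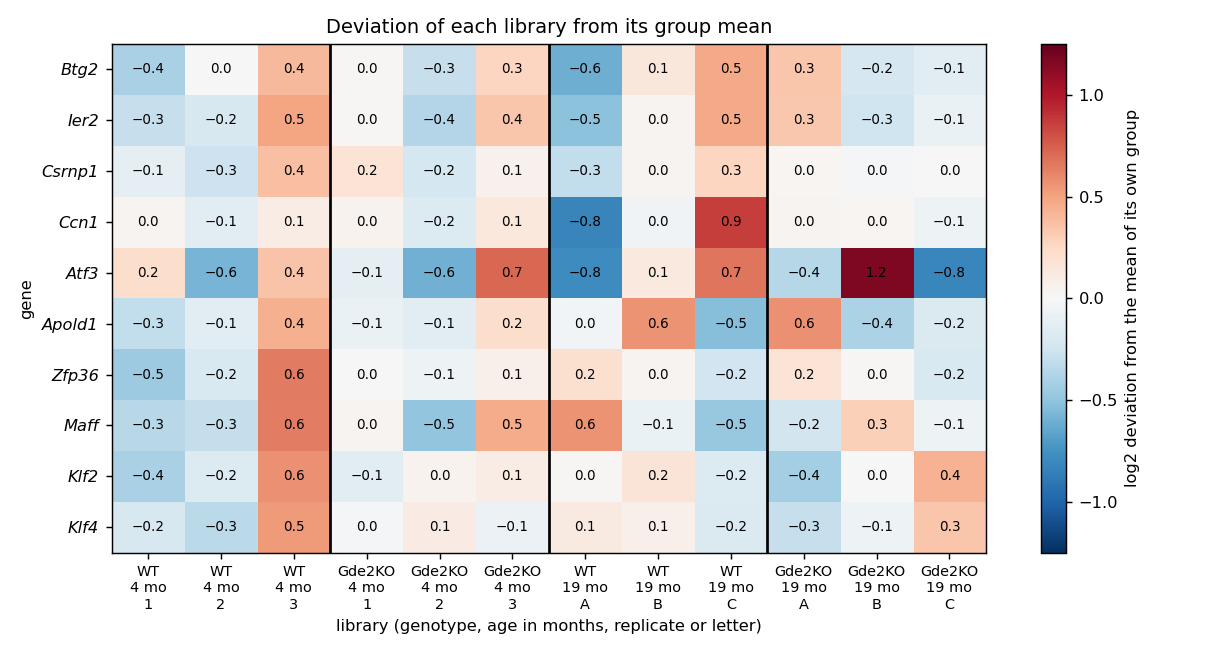
Log2 deviation of each library (x axis, genotype, age in months and replicate or letter) from the mean of its own group, for the 10 genes (y axis), with red above and blue below the group mean and the value in each cell. The column of 4-month WT replicate 3 is above 0 in all 10 genes, while 19-month WT library C is high for *Btg2*, *Ier2*, *Csrnp1*, *Ccn1* and *Atf3* and low for *Apold1*, *Zfp36*, *Maff*, *Klf2* and *Klf4*.

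Smaller groups of genes did follow each other, and they are named here after their values were seen. *Btg2* and *Ier2* were the closest pair, with r = 0.960 and Spearman's rho = 0.972 over the 12 libraries. Their r was 0.955 without WT replicate 3 at 4 months and 0.943 without the 2 libraries farthest from the median of *Btg2*. With *Ccn1* and *Csrnp1* they made a group of 4 genes whose 6 pairs ran from 0.714 to 0.960. The median of these 6 pairs was 0.792 within 4 months, 0.895 within 19 months, 0.798 without WT replicate 3 at 4 months and 0.681 without the low-depth libraries. Single pairs were less even, since *Btg2* with *Ccn1* came down to 0.506 and *Btg2* with *Csrnp1* to 0.650 without the 2 libraries farthest from the median of *Btg2* (19-month WT A and C). Without the low-depth libraries *Btg2* with *Ccn1* was at 0.494 and *Ccn1* with *Csrnp1* at 0.549.

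*Klf2* and *Klf4* were the other close pair, with r = 0.915 and rho = 0.839, and r = 0.819 without WT replicate 3. Without the 2 libraries farthest from the median of *Klf2* it was 0.834. *Maff* and *Zfp36* had r = 0.735 (0.553 without WT replicate 3), and *Apold1* was nearest to *Zfp36*, at 0.663 (0.626 without WT replicate 3). *Klf2*, *Klf4*, *Maff* and *Zfp36* had a median of 0.560 over their 6 pairs, which came down to 0.179 without WT replicate 3.

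Between *Btg2*, *Ccn1*, *Ier2* and *Csrnp1* on one side and *Klf2*, *Klf4*, *Maff* and *Zfp36* on the other, the 16 pairs had a median of 0.112. It was 0.776 within 4 months, -0.548 within 19 months and -0.372 without WT replicate 3, and 0.585 without the low-depth libraries. The opposition at 19 months is visible in WT, where *Btg2*, *Ccn1*, *Ier2*, *Atf3* and *Csrnp1* were highest in library C and lowest in library A. There *Klf4*, *Maff* and *Zfp36* were highest in library A and lowest in library C, and *Apold1* and *Klf2* were highest in library B and lowest in library C. Blood markers fell along the WT libraries (mean log2 score 1.49, 0.28 and -0.98 in A, B and C). The list of neuronal activity genes described below rose (-0.47, -0.02 and 0.39), and so did oligodendrocyte markers (-0.29, -0.25 and 0.17). Library A is one of the low-depth libraries. The part of these lists and of depth in the split was not tested.

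**Figure D4:**
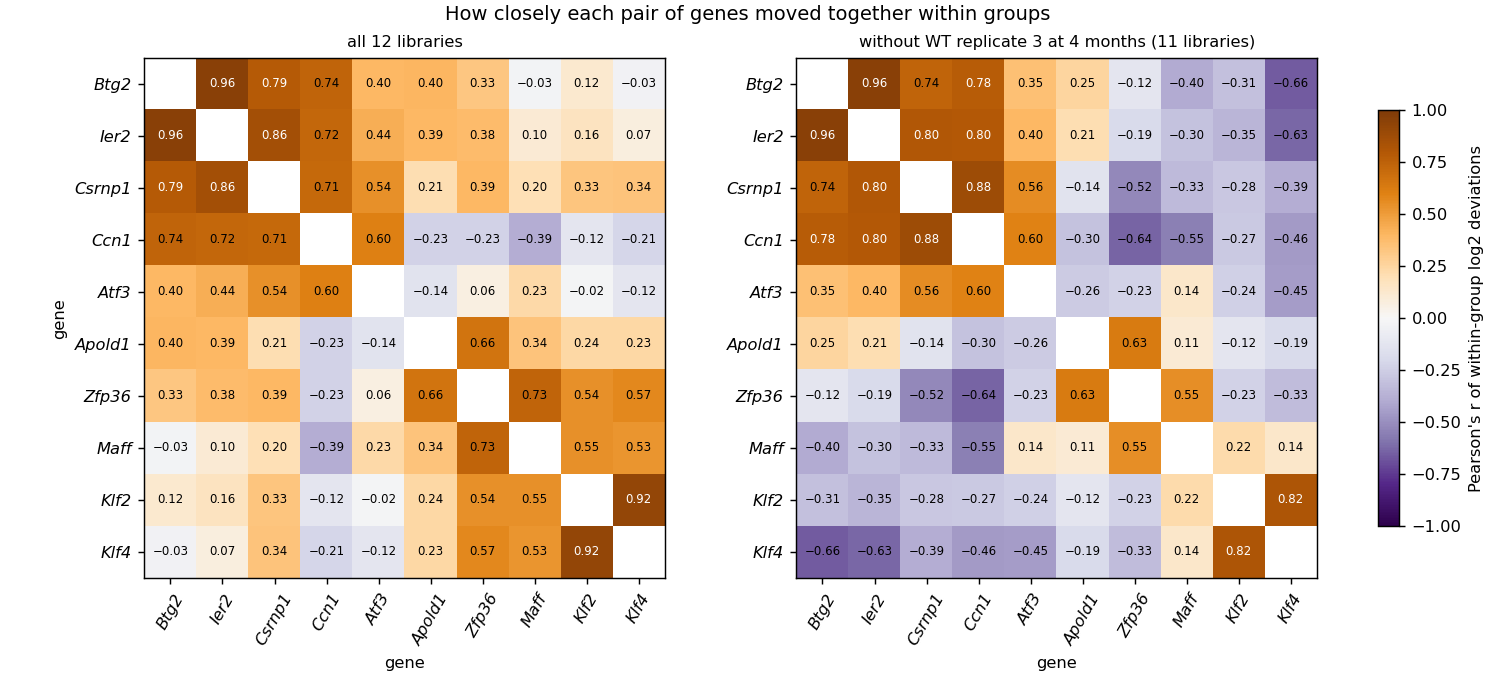
Pearson's r between the within-group log2 deviations of each pair of the 10 genes (both axes), over all 12 libraries on the left and without WT replicate 3 at 4 months on the right, with the value in each cell. The block of *Btg2*, *Ier2*, *Csrnp1* and *Ccn1* keeps values of 0.741 or more on the right, and *Klf2* with *Klf4* keeps 0.819, while the 16 pairs between *Btg2*, *Ier2*, *Csrnp1* or *Ccn1* and *Zfp36*, *Maff*, *Klf2* or *Klf4* are all negative there.

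Among the 4-month *Gde2*KO libraries, replicate 3 was the highest for 8 of the 10 genes and replicate 2 the lowest for 8. Over all tested genes the shares were 54.2% and 54.4%, and the totals of normalized counts had the same order (41229086 in replicate 3 and 31917431 in replicate 2). With libraries scaled to equal totals, both counts came down to 4 of 10, whereas WT replicate 3 remained the highest WT library for all 10. *Klf4* went against both on the deposited scale, with replicate 2 highest and replicate 3 lowest. Measured by the SD of the within-group log2 deviations, all 10 genes varied more than the median gene, with a median of 0.401 among them against 0.196 over the 14268 genes compared. *Atf3* had the largest SD (0.761) and *Csrnp1* the smallest (0.240).

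The genes whose within-group deviations were most like the mean of the 10, over 12 libraries, were *Adap1*, *Fn3k*, *Tgfbr1*, *Lypd6b*, *Cdh18*, *Pacsin3*, *Vat1*, *Sgtb*, *Stx1a* and *Arl4d*, with r from 0.957 down to 0.945. They were picked for the highest r over these libraries, so a high r follows from the choice. Without WT replicate 3 at 4 months, on the rest of the same libraries, their r was 0.843 to 0.892. Within the 19-month libraries it ran from 0.657 for *Arl4d* to 0.960 for *Tgfbr1*. None of these 10 genes belongs to the lists of early-response genes or relatives. Their log2 fold changes at 4 months ran from 0.18 for *Tgfbr1* to 1.23 for *Arl4d*.

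Related genes were counted from lists, which were also written with earlier results known. Over all 19035 genes tested at 4 months, 20 were called higher and 4 lower. Of the same genes 11.1% were without overlap and higher in *Gde2*KO, 810 were without overlap and lower, and the median log2 fold change was 0.11. Of 20 genes known from neuronal activity, 2 (*Nr4a1*, a nuclear receptor, and *Dusp6*, an ERK phosphatase) were called higher at 4 months and 0 lower, 13 had every *Gde2*KO library above every WT library, and the median log2 fold change was 1.13. *Egr2* was at 16.9, 32.4 and 149 in WT and 397, 310.3 and 323 in *Gde2*KO. *Fos* was at 281, 497 and 1301 in WT and 2926, 2229 and 3139 in *Gde2*KO. In both, as in *Dusp1* (log2 fold change 1.92 ± 0.35) and *Arc* (1.82 ± 0.43), WT replicate 3 was the highest WT library and still below every *Gde2*KO library.

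Of 28 other early-response genes, 0 were called at 4 months in either direction, 12 were without overlap and higher in *Gde2*KO and 1 without overlap and lower, and the median log2 fold change was 0.49. The largest were *Trib1* (1.62 ± 0.33), *Ier3* (1.36 ± 0.40), *Socs3* (1.12 ± 0.47) and *Sik1* (1.12 ± 0.25). Of 28 close relatives of the 10 genes, 0 were called in either direction, 8 were without overlap and higher, 0 lower, and the median was 0.32. Among them were *Ccn2*, a sister of *Ccn1* (1.37 ± 0.45), *Ccn4* (1.32 ± 0.47), *Ier5l* (1.22 ± 0.42) and *Klf5* (0.80 ± 0.28). None of the 3 lists had a gene called at 19 months, where their medians were 0.06, -0.04 and 0.005. The largest of the named genes in size there was *Egr2* (0.52 ± 0.49, limma adjusted p = 0.78).

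Endothelial markers were set beside the 10 genes. Of 20 markers 0 were called at 4 months, 3 were without overlap and higher in *Gde2*KO and 1 lower. Over all 19035 tested genes 11.1% were without overlap and higher and 810 without overlap and lower. The median log2 fold change of the endothelial markers was 0.24, against 1.02 for the 10 genes. The summed level of these markers was 11557 to 14154 normalized counts in WT and 13957 to 15517 in *Gde2*KO, and no defining marker was at 0. At 19 months 0 of 20 were called, the median was -0.18, and the summed level was 15899 to 18456 in WT and 12482 to 16282 in *Gde2*KO. The median of the 12 mural and fibroblast markers was 0.01 at 4 months and 0.08 at 19 months, with 0 called at either age. The 10 microglial markers had a median of 0.45 at 4 months, with 0 called and 3 without overlap and higher. *Gde2*KO replicate 3, the highest 4-month *Gde2*KO library for 8 of the 10 genes, had the highest microglial score of its age (0.63). It also had the highest 4-month score for neuron (0.21), astrocyte (0.15), mural and fibroblast (0.35), oligodendrocyte (0.16) and blood markers (0.60). Its endothelial score (0.11) was not the highest, and its total of normalized counts was the largest of its age. The 5 blood markers lay on the same side of 0 as most of the 10 genes at both ages. At 4 months 5 were above 0 with a median of 0.60, and at 19 months 0 were, with a median of -0.36. At either age 0 were called. Most endothelial markers did likewise, with 17 of 20 above 0 at 4 months and 5 at 19 months. Of the 10 microglial markers 10 were above 0 at 4 months and 4 at 19 months (median -0.05). Of all tested genes 12037 of 19035 were above 0 at 4 months and 8286 of 18583 at 19 months. The summed level of the blood markers was 3399.9 to 6805 in WT and 5895 to 11994 in *Gde2*KO at 4 months. At 19 months it was 6105 to 32714 in WT and 9230.3 to 14777 in *Gde2*KO. The part of vessel, microglial or blood content in the values of the 10 genes was not tested.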

How the data were processed

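RNAseq of mouse cortex was analyzed from 12 libraries, 3 for each genotype and age. Reads were quantified by the authors with Kallisto on GRCm38 transcripts and normalized in Sleuth, and the authors deposited signal values per transcript, which are estimated counts (here normalized counts) or TPM, each divided by a size factor per library. The submitters' processing notes also name bcl2fastq 2.17, Trimmomatic 0.36 and STAR 2.5.2b. Of 118489 transcripts, 1673 had no gene (0.541% to 0.605% of a library) and were left out, and the rest were summed to 36047 genes. The commonest low value was taken as 1 read. The 10 genes, the lists and the tests were chosen with earlier results of these data known. The study gives 3 animals per genotype.

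Genes with 5 normalized counts or more in at least 47% of an age's libraries were tested with limma 3.58.1 (R 4.3.3) on log2 values with a pseudocount of 0.5 and a variance trend, per age, with Benjamini-Hochberg adjustment over all tested genes. The study's linear model in Sleuth was not refitted, because limma fits the deposited values. Named genes were the 10 members, the 10 genes most like them, the 4 of largest 4-month change in each list of related genes and *Gdpd5*; *Nr4a1* and *Dusp6* were named after their calls were seen. Alternatives were other pseudocounts, filters, scalings, TPM, variance models, one fit of all 12 libraries, a replicate block and libraries left out. On simulated data with 200 changed genes the fit called 200 at 4 months (9 of the unchanged among 19184 genes) and 199 at 19 months (2 of 18718). This recovery holds only for the size of change and the spread that were simulated. Whether changes as small and as variable as those of the 10 members would be called was not tested. The simulation therefore does not bear on the absence of calls among the members at 19 months. Motifs were searched and figures drawn in python 3.11.15 (numpy 2.4.6, matplotlib 3.10.9, pandas 2.3.3).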

Additional observations from a re-analysis of the deposited data

How the results depend on the processing

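At 19 months the count of members called was 0 under all 16 alternatives, and the adjusted p of the members was 0.487 or more in each. At 4 months the count of 3 became 0 without a filter, 0 without a variance trend and 0 without both WT libraries 1 and 2, a fit with 1 WT library that is assumed to vary like *Gde2*KO, and ran from 0 to 8 when 1 library was left out, with 8 reached without WT replicate 3. The other settings gave 2 or 3. Without WT replicate 3, 1510 of the 18798 genes tested were called in either direction.

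The median r of the member pairs was 0.338. It was 0.777 in the 4-month libraries alone, -0.208 in the 19-month libraries alone and 0.574 without the libraries of low depth, and ran from -0.191 to 0.508 when 1 library was left out. Other pseudocounts, rank correlation, TPM and scaling gave 0.231 to 0.335.

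The sign of the 19-month log2 fold change, called in no member, turned in 6 of the 10 under some alternative. *Atf3* was at 0.0742 in TPM. With 1 library left out, *Btg2* ran from -0.392 to 0.149, *Ccn1* from -0.447 to 0.401, *Ier2* from -0.338 to 0.155, *Atf3* from -0.927 to 0.0679, *Csrnp1* from -0.218 to 0.0686 and *Zfp36* from -0.109 to 0.108. *Apold1*, *Klf2*, *Klf4* and *Maff* stayed below 0 under all 16 alternatives. Without both libraries of low depth *Btg2* was at -0.567, *Ier2* at -0.508, *Ccn1* at -0.464 and *Csrnp1* at -0.229. The cause was not tested.

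Same-numbered libraries at 4 months did not deviate together (r = 0.076, -0.028 and -0.078). With 3 libraries per group this cannot settle whether the numbers pair them. With the replicate number as a block 3 members were called, *Ier2* in place of *Ccn1*. No paired analysis was possible at 19 months because the columns carry no replicate numbers. Scaling to equal totals and leaving out both WT libraries were chosen after the data were seen. Depth limits *Atf3*, *Maff* and *Zfp36* most, with 6, 11 and 24 reads in the shallowest library.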
